A study of Mus musculus with 56 samples.

Results

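Sox2 and Sox9 are transcription factors of the SOX family, which bind DNA through an HMG box. Sox2 keeps neural stem cells and progenitors undivided in fate and is switched off as most of their progeny become neurons. Sox9 acts in the same ventricular progenitors, is needed for the switch to glial production, remains on in astrocytes and in the Bergmann glia of the cerebellum, and outside the brain drives cartilage formation. Their expression was followed here in mouse brain tumour models driven by N-myc. Both were taken as the genes whose symbol in the supplied probe annotation is exactly Sox2 or Sox9, which gave 2 of the 15224 genes with a usable probe, with 1 probe each. Neither had a missing value in any of the 56 arrays.

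All 56 samples came from FVB/N mice and each was hybridised to its own Affymetrix whole-transcript array. The orthotopic tumours grew after transplantation from neural stem cells (NSCs) transduced with N-myc(T58A), a mutation-stabilised form, and had 3 origins with 3 tumours each: forebrain at postnatal day 0 (P0F), cerebellum at postnatal day 0 (P0C) and cerebellum at embryonic day 16 (E16C). Cells grown out of a P0F, a P0C and an E16C tumour, N-myc(T58A) NSCs of P0C and E16C origin, and NSCs transduced with GFP alone (P0F, P0C sorted for GFP, P0C unsorted, E16C) had 1 array each. The titles call the tumour behind the P0F tumour cells a glioma and those behind the P0C and E16C cells medulloblastomas. The 32 GTML tumours came from mice that carry MYCN under tetracycline control, with a glutamate transporter promoter (a promoter of glial cells) upstream. A line of cells from a GTML tumour (GTML tumour cells) had 1 array. The 5 normal cerebella were removed on postnatal day 7 (P7). Their donors were GTML mice on doxycycline, so these controls carry the same transgene, which the drug silences.

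RNA of the orthotopic tumours and of the cultures in their series was labelled with a different kit from that of the GTML tumours and P7 cerebella. Labelling and group therefore cannot be told apart wherever an orthotopic tumour is compared with a GTML tumour or a P7 cerebellum. For the GTML tumour cells the kit remains unclear. The titles call the tumours and cerebella biological replicates, without stating how many NSC cultures stood behind each origin, so p-values measure the spread between these samples. In the E16C series the cell type tag of 3 samples names another sample's title. They are E16C tumour 3, tagged as cells derived from an E16C tumour, the E16C tumour cells, tagged as N-myc NSCs, and the E16C N-myc NSCs, tagged as GFP NSCs. Groups follow the titles. Levels are log2 values of the authors, so a difference of 1 is a doubling, and the level of 1 gene's probe is never set against the level of another's. In whole tissue, fewer cells of a type and less RNA per cell cannot be told apart.

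SOX proteins of this family recognise short sites with the core ACAAAG or ACAATG. The promoter of Sox2 is shown because it carries such a core itself, and that of Ntrk2, the receptor for brain-derived neurotrophic factor, because Ntrk2 was the gene whose level followed that of Sox2 most closely across the GTML tumours. Each run covers 250 bases before to 50 after the gene's start on the plus strand in RefSeq (GRCm38.p6, a later build than that of the arrays), at chr3:34649745-34650044 for Sox2 and chr13:58806319-58806618 for Ntrk2. Capitals mark every match to ACAAAG or ACAATG on either strand, read as CTTTGT or CATTGT on the other strand.
Sox2: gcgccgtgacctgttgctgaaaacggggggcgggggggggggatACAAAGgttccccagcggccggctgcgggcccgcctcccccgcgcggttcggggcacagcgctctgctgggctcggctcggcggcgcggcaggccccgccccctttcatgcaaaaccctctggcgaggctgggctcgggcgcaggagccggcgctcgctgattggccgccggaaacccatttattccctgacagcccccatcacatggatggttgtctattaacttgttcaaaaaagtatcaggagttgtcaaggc
Ntrk2: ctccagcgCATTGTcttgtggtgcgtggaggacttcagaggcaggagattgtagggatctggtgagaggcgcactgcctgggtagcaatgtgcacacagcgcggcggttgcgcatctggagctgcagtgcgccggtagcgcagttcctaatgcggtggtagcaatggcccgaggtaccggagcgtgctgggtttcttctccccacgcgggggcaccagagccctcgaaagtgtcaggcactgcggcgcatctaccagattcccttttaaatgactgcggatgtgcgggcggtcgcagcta
Each promoter held 1 match. Of 32851 promoters of this length, 28.6% held a match, so these matches describe the letters in the window and nothing about binding. Sox2 was in the promoter table, as were 7 of the 10 genes that followed it and 7 of the 10 that followed Sox9. A match was present for 2 of those 7 and 1 of those 7, against 31.7% of the 27025 genes in the table.

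Across all arrays, medians ran from 7.86 to 8.25 and 3.12% of values were blank. A level under 6.30, the percentile 25 of all values, was treated as low, and no GTML tumour lay under it for Sox2 or Sox9. GTML tumours 20, 22, 30 and 31 stood apart from the other 28. Their photoreceptor gene scores, the mean log2 level of a list that marks these tumours, were 6.92, 8.07, 9.06 and 6.80, against 10.16 to 11.42 in the other 28. Tumours 20 and 30 had neuron scores of 11.74 and 11.69 (7.43 to 8.72 in the 28) and astrocyte and Bergmann glia scores of 11.23 and 11.21 (7.10 to 9.02), and their cell cycle scores of 6.82 and 9.04 lay under the 28 (9.79 to 11.00). Tumour 22 had the highest fibroblast score at 11.07, above the 6.74 to 10.45 of the 28. The main comparisons of GTML tumours are therefore also given without these 4.

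Sox2 was high in stem cells and transplanted tumours and low in GTML tumours. Its level was 11.63, 12.03 and 11.73 in P0F tumours, 12.14, 11.86 and 13.24 in P0C tumours, and 12.14, 12.31 and 10.28 in E16C tumours. Among the 32 GTML tumours the lowest, median and highest levels were 6.66, 7.36 and 10.02, and the 5 P7 cerebella had 10.69, 10.78, 10.72, 10.99 and 10.92. E16C tumour 3 was the only orthotopic tumour under the P7 cerebella, and every GTML tumour lay under them. How many of all genes separate GTML tumours from cerebella in this way was not counted. By group mean the order from low to high was GTML tumours, P7 cerebella, E16C, P0F and P0C tumours. Only the first step in that order passed the test, since E16C tumours and P7 cerebella (limma adjusted p = 0.241), P0F and E16C tumours (0.923) and P0F and P0C tumours (0.629) did not differ past the threshold.

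Sox9 varied over a narrower range, with the highest levels in the GFP NSCs of P0C origin. It was 9.11, 10.51 and 10.28 in P0F tumours, 8.41, 8.58 and 9.12 in P0C tumours, and 10.10, 10.00 and 8.35 in E16C tumours. The 32 GTML tumours had 7.54, 8.00 and 8.61 as lowest, median and highest level, and the P7 cerebella 8.91, 9.18, 8.88, 9.12 and 9.12. The P0C tumours straddled the gap between GTML tumours and cerebella, and again every GTML tumour lay under every cerebellum. The share of all genes that do so was not counted here either. The order of means was GTML tumours, P0C tumours, P7 cerebella, E16C tumours and P0F tumours. Of these steps P0C tumours against GTML tumours passed the test, while P0C tumours against P7 cerebella (limma adjusted p = 0.312), E16C tumours against P7 cerebella (0.168) and P0F against E16C tumours (0.786) did not.

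**Figure D1:**
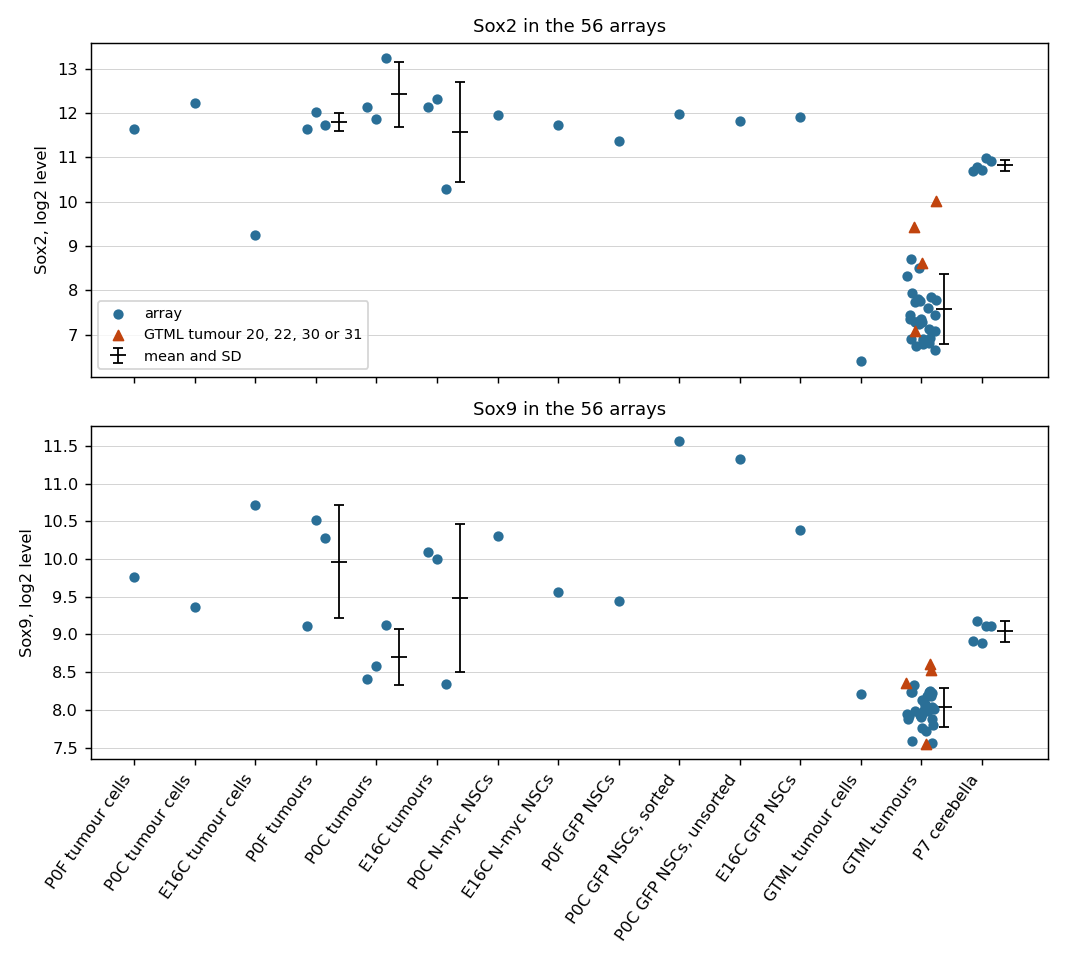
Log2 levels of Sox2 (top) and Sox9 (bottom) in every array, by group, with each group's mean and SD beside its points where it has over 1 array and GTML tumours 20, 22, 30 and 31 as triangles. All 32 GTML tumours lie under the 5 P7 cerebella for both genes, and the GTML tumour cells lie under all 32 tumours for Sox2 at 6.40.

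The comparison of GTML tumours with P7 cerebella asks how a MYCN-driven medulloblastoma differs from normal developing cerebellum. Sox2 averaged 7.59 ± 0.79 in GTML tumours (SD, n = 32) and 10.82 ± 0.13 in P7 cerebella (SD, n = 5), a difference of -3.23 (SE 0.35), or 9.39-fold lower (limma adjusted p = 1.11e-09). Sox9 averaged 8.03 ± 0.26 in GTML tumours and 9.04 ± 0.14 in P7 cerebella, a difference of -1.01 (SE 0.12), or 2.01-fold lower (limma adjusted p = 1.19e-08). Both genes fell. Of the 12275 genes tested 57.7% were called, 24.8% as lower and 32.9% as higher, so a lower call was common. Counting each gene itself, 76 genes (0.619%) fell as far as Sox2 and 1265 (10.3%) as far as Sox9. The fall of Sox2 exceeded that of Sox9 by 2.22 on the log2 scale within the same arrays (a difference of differences of -2.22, exact two-sided permutation p = 9.18e-06 over 435897 allocations). The changes were read by different probes, and whether these respond alike to a change in RNA was not tested. Without tumours 20, 22, 30 and 31 the 28 others had 7.41 ± 0.53 for Sox2 and 8.00 ± 0.20 for Sox9, and the differences from P7 cerebella were -3.40 and -1.04.

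Sox2ot, a long noncoding RNA whose locus contains Sox2, was also lower in GTML tumours. It averaged 5.29 ± 0.82 in GTML tumours and 7.34 ± 0.16 in P7 cerebella, a difference of -2.05 (limma adjusted p = 1.32e-05). Tumour 31 (8.58) alone lay above the lowest cerebellum (7.19), and the next tumour had 7.15. Without tumours 20, 22, 30 and 31 the level was 5.05 ± 0.32 in the 28 GTML tumours and the difference was -2.29. No source used here tells whether its probe shares sequence with Sox2. Its GTML levels ran from 4.49 to 8.58, and its Spearman correlation with Sox2 was 0.54 over the 32 tumours and 0.42 over the 28. In the 28 the highest level was 6.01, under the 6.30 treated as low. The size of the difference and the correlation over the 28 therefore rest on low values.

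The rest of the SOX family did not move as a block. Besides Sox2 and Sox9, 16 family genes were measured, and in GTML tumours 8 were lower, 5 were higher and 3 did not pass the test. Over all genes tested 24.8% were lower and 32.9% higher, so the higher count was near the share of all genes. Without tumours 20, 22, 30 and 31 the counts were 9 lower and 5 higher, where 31.1% of all genes were lower and 43.3% higher. The median difference of the 16 was -0.28, against 0.10 over all genes tested. Sox5 and Sox6, which act beside Sox9 in cartilage and in oligodendrocyte lineage cells, differed by -2.59 and -1.32. Sox8, the closest relative of Sox9 and Sox10, differed by -0.88, as did Sox18, an endothelial member. Among the 5 higher genes, Sox30 (0.52), Sox12 (0.47) and Sox15 (0.45) had the largest differences. Centring each array on its median moved the median difference of all genes to 0.25, and normalising by quantiles moved it to 0.12. Under both scalings the lower calls of Sox10 and Sox21 were lost, that of Sox7 was lost under centring, and Sox1, not called in any of the 3, turned sign (-0.01 as deposited, 0.11 under quantiles and 0.13 under centring). These 4 were named after their values were seen.

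**Figure D2:**
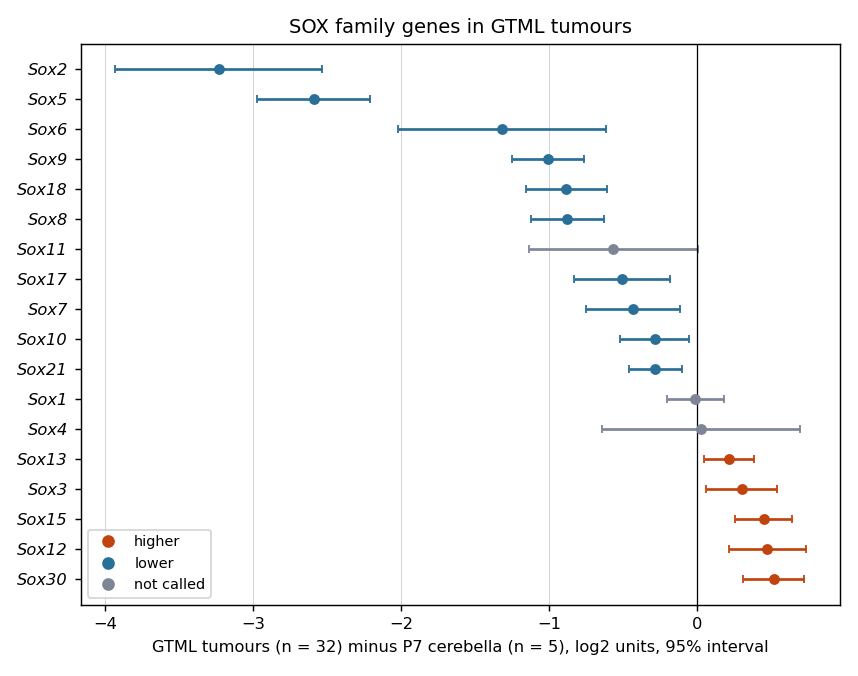
Differences between GTML tumours (n = 32) and P7 cerebella (n = 5) in log2 units for the 18 measured SOX genes, with 95% intervals of the limma fit, coloured by call. Sox2 at -3.23 has the largest difference of the family, followed by Sox5 at -2.59.

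Genes known to act with Sox2 in neural progenitors were split. Of 13 on the list, 3 were higher, 6 were lower and 4 did not pass, with a median difference of -0.22, where 32.9% of all genes were higher and 24.8% lower. Egfr, which encodes the epidermal growth factor receptor on which NSC cultures depend, differed by -3.10 (limma adjusted p = 5.89e-11). Pax6, a transcription factor of progenitors and granule cells, differed by -1.67 (0.00690). Lhx2, a homeobox gene of the forebrain and eye, was higher by 1.74 (0.000193).

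Genes around Sox9 in gliogenesis moved one way. Of 10 tested regulators and glial targets, 9 were lower and none was higher, with a median of -2.20, where 24.8% of all genes were lower. Apcdd1 and Mmd2, which Sox9 and Nfia switch on together at the start of gliogenesis in the spinal cord, differed by -3.44 and -2.82, and Nfia itself by -2.86. Rbpj, the Notch pathway's DNA-binding factor, differed by 0.00 and was not called. Cartilage targets of Sox9 were mixed: 3 of 8 tested were higher and 4 were lower, with a median of -0.12, beside 32.9% of all genes higher and 24.8% lower. The counts were 0 higher and 1 lower under the stricter filter on low values. The largest, Col9a3, which encodes a chain of collagen IX, differed by -1.13.

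Lists of cell types moved alongside, and their counts stand beside 24.8% of all genes lower and 32.9% higher. Radial glia and stem cell genes were lower for 11 of 14 and higher for 2, with Fabp7 (-3.97), Slc1a3 (-3.54) and Tnc (-3.35) lowest and the RNA-binding protein gene Msi1 higher by 1.03. Slc1a3 and Fabp7 are also markers of Bergmann glia. All 12 tested astrocyte and Bergmann glia genes were lower, among them Aldh1l1 (-4.08), Gdf10 (-3.70) and the water channel Aqp4 (-3.56). The score of that list was 6.52 to 11.23 in GTML tumours and 10.55 to 10.75 in P7 cerebella. Genes of oligodendrocyte precursors were lower for 5 of 5, those of oligodendrocytes for 7 of 7, those of neurons for 7 of 8 and those of granule neuron precursors for 7 of 8. Photoreceptor genes were higher for 9 of 9 tested, microglia genes were higher for 6 of 9 and lower for 1, and none of the 11 cell cycle genes was called. Without tumours 20, 22, 30 and 31, 10 of the 11 cell cycle genes were called higher, where 43.3% of all genes were higher and 31.1% lower. In that setting the Sox2 partners gave 4 higher and 7 lower, the Sox9 regulators and glial targets 9 lower, cartilage targets 3 higher and 4 lower, radial glia 3 higher and 11 lower, astrocytes and Bergmann glia 12 lower, and granule neuron precursors 8 lower. The part of these cell types in the lower Sox2 and Sox9 was not tested.

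Within the 32 GTML tumours, Sox2 was highest in tumour 30 at 10.02 and tumour 20 at 9.44, followed by tumour 3 at 8.70, tumour 31 at 8.61 and tumour 6 at 8.51. Sox9 was highest in tumour 20 at 8.61, tumour 22 at 8.52 and tumour 30 at 8.36. The ranks parted in tumour 31, where Sox2 was the 4th highest and Sox9 was the lowest at 7.54, and in tumour 22, where Sox9 was next to highest and Sox2 was 7.08, in the lower part of the range. Pearson's r between Sox2 and Sox9 was 0.40 (permutation p = 0.0253, adjusted over 33 relations 0.0417) and Spearman's rho was 0.36 (permutation p = 0.0463, adjusted 0.117). Without tumours 20 and 30, the farthest from the Sox2 median, r was 0.13. Over the 28 tumours r was 0.41 (permutation p = 0.0289, adjusted 0.119) and rho 0.42 (permutation p = 0.0286, adjusted 0.105). No relation between both genes therefore passed by both measures.

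Sox2 followed the astrocyte and Bergmann glia score. Over 32 tumours r was 0.79 and rho 0.68 (permutation p adjusted over 33 relations, 8.25e-05 and 0.00116), and r was 0.51 without tumours 20 and 30. Over the 28 tumours r was 0.89 and rho 0.83 (adjusted 0.00033 for both), and r was 0.82 without tumours 3 and 6. An unadjusted p of 1e-05 is the smallest that the permutations could give. Tumour 31 lay off this relation in the 32, with the lowest astrocyte score (6.52) beside its high Sox2. Of 16 list scores set against Sox2, 3 passed by both r and rho over 32 tumours and 4 over the 28. Some lists share genes, such as Fgfr3 in the astrocyte list and the Sox9 regulator list, so these are not fully separate results. With the oligodendrocyte score r was 0.82 and rho 0.59 over 32 (adjusted 8.25e-05 and 0.00388), and r was 0.60 without tumours 20 and 30. Over the 28 r was 0.64 and rho 0.49 (adjusted 0.00352 and 0.0393), and r fell to 0.32 without tumours 3 and 6. With the score of Sox9 regulators and glial targets r was 0.65 and rho 0.52 over 32 (adjusted 0.00223 and 0.0135), falling to an r of 0.21 without tumours 20 and 30, and r was 0.68 and rho 0.64 over the 28 (adjusted 0.00116 and 0.00478). The radial glia score passed over the 28 (r 0.57 and rho 0.53, adjusted 0.00931 and 0.0257) but not by r over the 32 (r 0.32, adjusted 0.104). With the list of Sox2 partners and targets r was -0.23 (adjusted p = 0.235) over the 32.

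Sox9 followed the cartilage target score as well as the glial ones. With cartilage targets r was 0.66 and rho 0.62 over 32 tumours (permutation p adjusted over 33 relations, 0.000198 and 0.00198), with an r of 0.54 without tumours 20 and 22, and r was 0.58 and rho 0.59 over the 28 (adjusted 0.00931 and 0.0125). The scores themselves stayed between 6.50 and 7.48, close to the level treated as low. With astrocytes and Bergmann glia r was 0.69 and rho 0.67 over 32 (adjusted 8.25e-05 and 0.00116), and 0.50 and 0.51 over the 28 (adjusted 0.0324 and 0.0325). Of 16 scores, 6 passed by both measures over the 32 tumours, and 3 over the 28: cartilage targets, astrocytes and Bergmann glia, and oligodendrocyte precursors (r 0.55 and rho 0.53 over the 28, adjusted 0.0120 and 0.0257). The score of its own regulators and glial targets (r 0.66 and rho 0.47 over 32, adjusted 0.000275 and 0.0212) and that of the SHH pathway (r 0.68 and rho 0.48, adjusted 8.25e-05 and 0.0212) no longer passed over the 28, where r was 0.26 (adjusted 0.361) and 0.27 (adjusted 0.358).

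**Figure D3:**
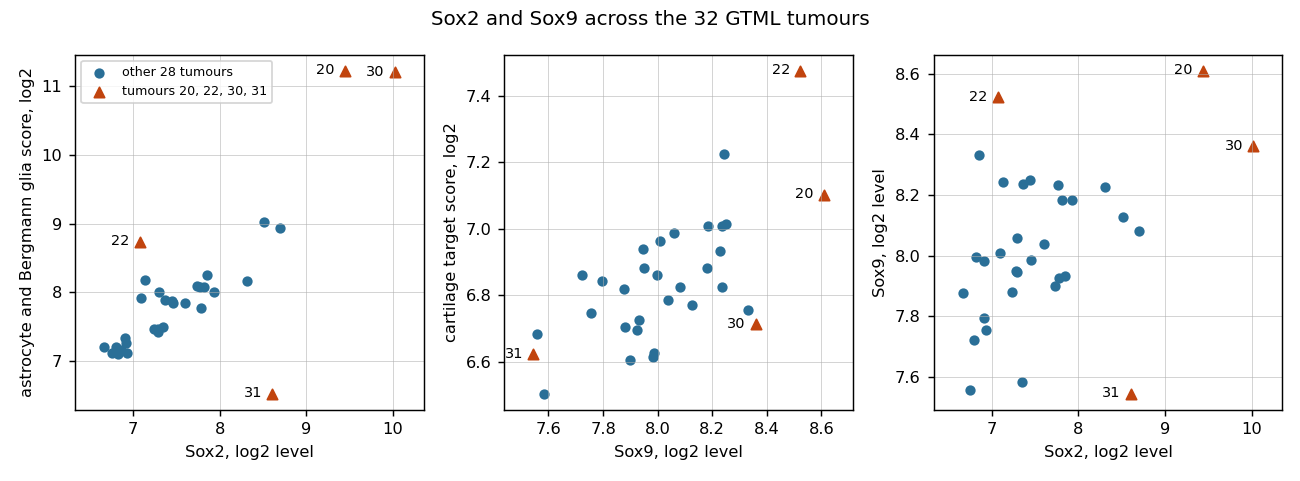
Each point is 1 of the 32 GTML tumours, and tumours 20, 22, 30 and 31 are labelled triangles. The panels set Sox2 against the astrocyte and Bergmann glia score, Sox9 against the cartilage target score, and Sox2 against Sox9, all as log2 levels. Tumours 20 and 30 lie at the top of the first panel, and tumour 31 has high Sox2 with the lowest Sox9 in the last.

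The genes most like Sox2 were ranked by Spearman's rho over the 32 tumours among 12151 genes, as a description with no test. The tumours differ in cell makeup, as the scores above show, and every gene was read on the same arrays. Ntrk2 came first with rho 0.82 (r 0.90). Its level ran from 6.68 through a median of 8.37 to 11.80 in GTML tumours, against 11.54 to 11.78 in P7 cerebella, and tumours 20 and 30 had 11.80 and 11.61. Next were Nebl, which encodes an actin-binding protein (rho 0.80), Omg, a myelin glycoprotein gene (0.79), Mamdc2 (0.79), Slc14a1, a urea transporter gene (0.78), and Gpr37l1, a receptor gene of astrocytes and Bergmann glia (0.77). Slc39a12, a zinc transporter gene (0.77), Lsamp, a cell adhesion gene (0.76), Scrn1 (0.76) and Lrrc4c (0.76) completed the 10. All 10 were lower in GTML tumours than in cerebella, by -1.44 for Mamdc2 to -4.62 for Scrn1. Of all genes tested 24.8% were lower. The 10 were chosen for following Sox2, itself lower, so their count is no separate evidence. GTML means of Lrrc4c (5.40), Slc39a12 (5.80), Omg (6.10) and Mamdc2 (6.25) lay under the 6.30 treated as low. The filter can keep such genes for their levels in cerebella alone, and the sizes of their differences rest partly on low values. Over the 28 tumours the closest were Slc14a1 (rho 0.89) and Gpr37l1 (0.89), and 3 of the first 10 were shared between both rankings. Counted as a whole, 97 genes had a rho of 0.6 or more over the 32 and 86 over the 28.

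The 5 genes that ran most against Sox2 were Col6a2 (rho -0.73) and Col6a3 (-0.72), chains of collagen VI, Olfml2b (-0.71), Postn, which encodes periostin (-0.69), and Aspn, which encodes asporin (-0.69). Of these, Olfml2b differed between GTML tumours and P7 cerebella by -0.74 (limma adjusted p = 0.00113), and the other 4 were not called. Col6a2 was highest at 9.74 in tumour 22 and lowest at 6.98 in tumour 30.

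The genes most like Sox9 were other genes. Srcin1, which encodes an inhibitor of Src kinase signalling, came first with rho 0.84 (r 0.69), then Sprn, a relative of the prion protein (0.82), Kcnh1, a potassium channel gene (0.81), Chrd, which encodes the BMP antagonist chordin (0.78, with r 0.81), and Daam2, a formin gene of the Wnt pathway (0.77). Phf24 (0.76), Rftn2 (0.76), Nxph1 (0.76), the myelin gene Mobp (0.75) and Shc3 (0.74) followed. Of the 10, 9 were lower in GTML tumours than in cerebella, and Daam2 (-0.49, limma adjusted p = 0.181) was not called. Of all genes tested 24.8% were lower. The 10 were chosen for following Sox9, itself lower, so their count is no separate evidence. The GTML mean of Rftn2 was 6.20, under the 6.30 treated as low. Chrd was 6.73, 7.11 and 8.15 at its lowest, median and highest in GTML tumours, against 8.44 to 8.66 in P7 cerebella. Genes against Sox9 were Ammecr1 (-0.76), Thada (-0.73), Cep164 (-0.73), a gene of centrioles, Ints9 (-0.71) and Clec4n (-0.71), a lectin gene of myeloid cells. Clec4n was 2.48 higher in GTML tumours than in cerebella (limma adjusted p = 3.83e-06), and was 4.85 in tumour 20, where Sox9 was highest, and 8.64 in tumour 31, where Sox9 was lowest. Its mean in P7 cerebella was 4.85 ± 0.15, under the 6.30 treated as low, so the filter kept it for its GTML levels. The size of its difference rests on low values. Clec4n was chosen for running against Sox9, itself lower, so its difference is no separate evidence. Counted as a whole, 237 genes had a rho of 0.6 or more with Sox9 over the 32 tumours and 134 over the 28.

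Orthotopic tumours, which share a driver gene family with GTML tumours, had far more Sox2. Their differences from GTML tumours were 4.21 for P0F, 4.83 for P0C and 3.99 for E16C tumours, or 18.5-fold, 28.4-fold and 15.9-fold higher (limma adjusted p = 9.31e-11, 3.49e-12 and 6.32e-10). No orthotopic tumour overlapped the GTML tumours, the lowest being E16C tumour 3 at 10.28. The share of all genes without such overlap was not counted. The genes called made up 46.6%, 44.2% and 42.5% of those tested, with 21.6%, 20.2% and 19.6% called higher, and 24% called lower in P0C tumours. Counting Sox2 itself, 15, 6 and 5 genes rose as far. Sox9 was higher by 1.93 in P0F tumours (limma adjusted p = 6.98e-10), 0.67 in P0C tumours (0.0103) and 1.45 in E16C tumours (5.98e-07). P0F tumours did not overlap the GTML tumours for Sox9, while 2 P0C tumours and E16C tumour 3 lay within the GTML range. Without P0C tumour 3 the P0C difference was 0.46 (limma adjusted p = 0.159). Without E16C tumour 3 the E16C differences were 4.64 for Sox2 and 2.02 for Sox9. These 3 comparisons share the 32 GTML arrays, and leaving out tumours 20, 22, 30 and 31 changed no call in them, with Sox2 differences of 4.38 for P0F, 5.00 for P0C and 4.16 for E16C.

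Against P7 cerebella the transplanted tumours differed less in Sox2 and Sox9, though not in the share of all genes called. Genes called in either direction made up 46.2%, 42.2% and 45.9% of those tested for P0F, P0C and E16C tumours. Against GTML tumours these shares were 46.6%, 44.2% and 42.5%. In P0C tumours against cerebella 20.8% were higher and 21.3% lower. Sox2 was higher in P0C tumours by 1.60 (limma adjusted p = 0.0136), and without P0C tumour 3 by 1.19 (0.120). In P0F tumours it differed by 0.98 (SE 0.53, limma adjusted p = 0.128), a value that passed (0.0296) when the 4 GTML tumours that stand apart were left out of the shared spread, and in E16C tumours by 0.76 (0.241). Sox9 was higher in P0F tumours by 0.93 (limma adjusted p = 0.00376), and without P0F tumour 2 by 0.65 (0.0750). It differed by -0.34 in P0C (0.312) and 0.44 in E16C tumours (0.168). Without E16C tumour 3 the E16C differences were 1.41 for Sox2 (limma adjusted p = 0.0475) and 1.01 for Sox9 (0.00113).

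Other SOX genes were also higher in orthotopic than in GTML tumours. Of the 16 besides Sox2 and Sox9, 8 were higher in P0F, 7 in P0C and 6 in E16C tumours, and 1, Sox4 in E16C tumours (-0.99), was lower (named because it was the only one). Over all genes 21.6%, 20.2% and 19.6% were higher in P0F, P0C and E16C tumours. The medians of the 16 were 0.47, 0.37 and 0.29, against -0.05, -0.06 and -0.05 over all genes. Sox6 was 3.24, 4.18 and 2.75 higher and Sox8 2.54, 2.86 and 2.27 higher in P0F, P0C and E16C tumours. Sox10, which directs oligodendrocyte differentiation, was 3.74 higher in P0C tumours than in GTML tumours and 3.45 higher than in P7 cerebella. Its mean was 11.12 ± 0.54 in P0C tumours, against 8.10 ± 0.31 in P0F and 8.27 ± 1.81 in E16C tumours (SD, n = 3 each). In P0C against GTML tumours the oligodendrocyte lists moved too, with 6 of 7 oligodendrocyte genes (median 3.14) and 5 of 5 precursor genes (median 2.98) higher. The precursor genes were higher for 5 of 5 in P0F and 2 of 5 in E16C tumours, and no oligodendrocyte gene was called in either. Their part in the Sox10 difference was not tested. Sox2ot was higher than in GTML tumours, most of which had low levels, in P0F (3.40), P0C (5.27) and E16C tumours (3.07). Its highest level, 13.35, was in P0C tumour 3, which also had the highest Sox2.

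Listed partners and targets of both genes were compared with the 21.6%, 20.2% and 19.6% of all genes called higher in P0F, P0C and E16C tumours. Of 13 Sox2 partners and targets, 10 were higher in P0F, 6 in P0C and 8 in E16C tumours than in GTML tumours, and none was lower. In P0F tumours Nes, the intermediate filament gene of stem cells, was 4.56 higher and Gli3, a mediator of hedgehog signalling, 4.29 higher. Of 10 Sox9 regulators and glial targets, 6, 7 and 7 were higher and Fbxw7, the ubiquitin ligase gene that marks Sox9 for degradation, was lower in P0C tumours (-0.87). Of 10 tested cartilage targets, 2, 6 and 7 were higher and none was lower, the P0F count being near the share of all genes. Acan was 2.30 higher in P0C and 1.92 higher in E16C tumours. Its levels were 8.54, 10.46 and 6.04 in P0C tumours and 5.98, 5.92 and 12.02 in E16C tumours. The E16C difference in Acan thus rests on E16C tumour 3. How many of the 7 E16C genes were higher without that tumour was not counted. Of 12 astrocyte and Bergmann glia genes, 6, 5 and 4 were higher. That list's score was 8.47 to 9.55 over the 9 orthotopic tumours, 6.52 to 11.23 in GTML tumours and 10.55 to 10.75 in P7 cerebella, and its part in the Sox2 and Sox9 differences was not tested.

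Among the orthotopic tumours the comparison asks how the region and age of the stem cell of origin show in the tumour. For P0C minus E16C tumours, Sox2 differed by 0.84 (95% interval -0.39 to 2.06, limma adjusted p = 0.519) and Sox9 by -0.78 (-1.95 to 0.40, adjusted 0.534), where 0.705% of genes were called and 0.151% were called lower. For P0F minus P0C tumours, Sox2 differed by -0.62 (-1.85 to 0.60, limma adjusted p = 0.629) and Sox9 by 1.26 (0.09 to 2.44, adjusted 0.277), where 1.18% were called. For P0F minus E16C tumours, the differences were 0.22 (-1.01 to 1.44, limma adjusted p = 0.923) and 0.49 (-0.69 to 1.66, adjusted 0.786), where 0.277% were called and 0.0587% were called lower. Neither gene was called in any of the 3, and the intervals leave room for differences of over 1 log2 unit. E16C tumour 3 was the lowest of the 9 for both genes, and the SDs of the E16C group were 1.12 for Sox2 and 0.98 for Sox9. Its microglia score of 8.32 lay with those of E16C tumours 1 and 2 (8.14 and 8.30) and above the 6.49 of the E16C tumour cells. Without it, the P0F minus E16C differences turned sign, to -0.43 and -0.08, and the P0C minus E16C differences were 0.19 for Sox2 and -1.34 for Sox9 (limma adjusted p = 0.841 and 0.140). Without P0C tumour 3, Sox2 differed by 0.43 for P0C minus E16C and by -0.21 for P0F minus P0C tumours. Among the listed genes, Nes was higher in P0F than in P0C (2.80, limma adjusted p = 0.00894) and E16C tumours (2.60, 0.0273), and Fbxw7 was higher in P0F than in P0C tumours (1.70, 0.0253). The myelin genes Mbp (-3.62, 0.0210) and Ugt8a (-3.89, 0.0293) were lower in P0F than in P0C tumours, and the proliferation marker Mki67 was lower in P0F than in E16C tumours (-1.23, 0.0473). For P0C minus E16C tumours 4 of 7 oligodendrocyte genes and 1 of 5 precursor genes were higher, and Mki67 (-1.23, 0.0310) and the hedgehog receptor component gene Smo (-1.30, 0.0287) were lower.

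Some cartilage targets of Sox9, though not all, were high in tumours where Sox9 was low. Acan, which encodes the cartilage proteoglycan aggrecan, was 6.42, 6.23 and 6.38 in P0F tumours, 8.54, 10.46 and 6.04 in P0C tumours, and 5.98, 5.92 and 12.02 in E16C tumours. Col9a1 reached 9.99 and Hapln1, a cartilage link protein gene, 9.45 in E16C tumour 3, and they reached 9.47 and 8.49 in P0C tumour 2. Col2a1, the main collagen gene of cartilage, was 10.71 in E16C tumour 3 but 7.94 in P0C tumour 2. Comp went the other way, at 6.30 in E16C tumour 3, 6.38 in P0C tumour 2 and 6.29 in P0C tumour 1. These were its lowest levels among the 9 tumours. Matn1, at 6.33, 6.09 and 5.68 in the same tumours, was near or under the level treated as low. The mean level of the 11 genes was 9.09 in E16C tumour 3, 8.33 in P0C tumour 2, 7.57 in P0C tumour 1 and 6.86 to 7.15 in the other 6. Sox9 was 8.35, 8.58 and 8.41 in those 3 tumours, the 3 lowest levels of the 9. The tumours were singled out after their values were seen, and no test was made.

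**Figure D4:**
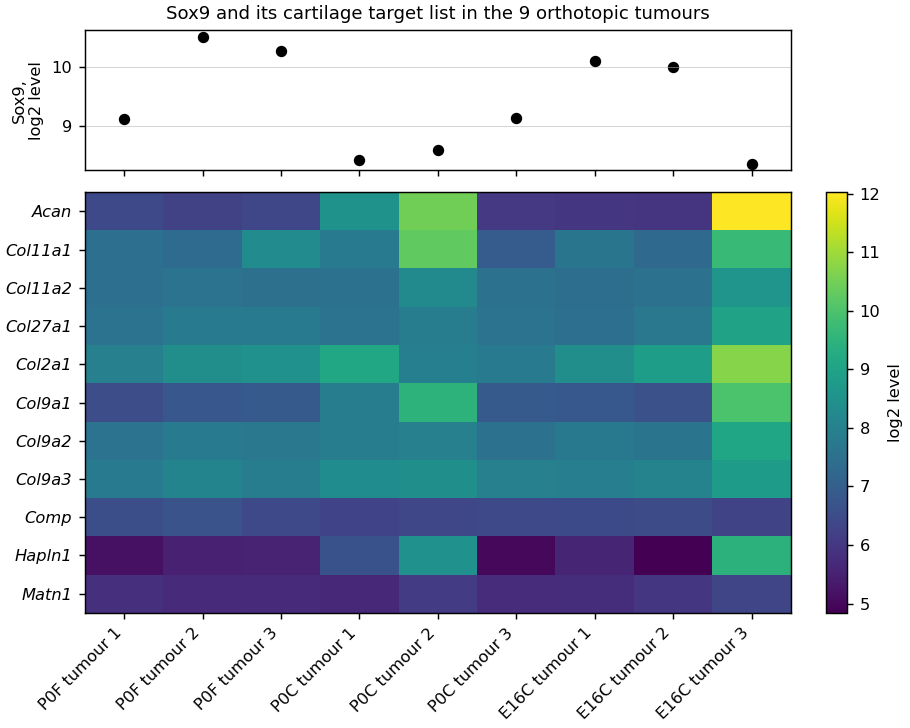
Sox9 log2 level (top) and log2 levels of its 11 cartilage targets (colour scale) in the 9 orthotopic tumours. E16C tumour 3 and P0C tumour 2 have the brightest columns, with Acan at 12.02 and 10.46, while their Sox9 levels of 8.35 and 8.58 are among the lowest.

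The last set of comparisons asks what separates tumours from the stem cells they came from and from the cells grown out of them, with origin as a term. Sox2 did not pass in any of the 5 comparisons. It was 11.63, 12.23 and 9.25 in P0F, P0C and E16C tumour cells, 11.96 and 11.72 in P0C and E16C N-myc NSCs, and 11.37, 11.97, 11.81 and 11.90 in P0F, P0C sorted, P0C unsorted and E16C GFP NSCs. The E16C tumour cells, 1 of the samples with a tag out of step, stood below the other cultures. The difference was 0.28 for tumours minus GFP NSCs (95% interval -0.63 to 1.20, limma adjusted p = 0.716, with 11.1% of genes called, 4.08% as higher and 7.01% as lower), 0.10 for tumours minus N-myc NSCs (-1.12 to 1.31, adjusted 0.955, with 1.14% called) and 0.19 for N-myc minus GFP NSCs (-1.15 to 1.52, adjusted 0.972). In N-myc minus GFP NSCs limma called 1 gene of 12557 (0.00796%), with 1066 at an unadjusted p under 0.05. For tumour cells minus tumours it was -0.89 (-1.90 to 0.12, limma adjusted p = 0.321, with 3.55% called) and for tumour cells minus GFP NSCs -0.61 (-1.77 to 0.56, adjusted 0.657, with 0.57% called). Without the E16C tumour cells these were -0.086 and 0.17.

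Sox9 was highest in GFP NSCs of P0C origin. It was 9.76, 9.36 and 10.71 in P0F, P0C and E16C tumour cells, 10.31 and 9.57 in P0C and E16C N-myc NSCs, and 9.44, 11.57, 11.33 and 10.39 in P0F, P0C sorted, P0C unsorted and E16C GFP NSCs. The E16C tumour cells thus paired the lowest Sox2 of these cultures with the highest Sox9 outside the P0C GFP NSCs. Tumours minus GFP NSCs differed by -1.33 (SE 0.49, 95% interval -2.38 to -0.27, limma adjusted p = 0.0948), which did not pass. It passed without the P0F GFP NSCs (-1.95, adjusted 0.0223), with cerebellar origins only (-2.04, adjusted 0.0336) and with array weights (-1.997, adjusted 0.00389). Array weights also raised the number of genes called from 1402 to 3936. Of 32 alternatives 27 kept the result of no call. Among these were averaging the P0C GFP NSC arrays and leaving both out. N-myc minus GFP NSCs differed by -0.75 (limma adjusted p = 0.819), tumours minus N-myc NSCs by -0.58 (0.727), tumour cells minus tumours by 0.56 (0.621) and tumour cells minus GFP NSCs by -0.77 (0.616). Without the P0C N-myc NSCs, tumours minus N-myc NSCs was -0.039, and without the E16C tumour cells, tumour cells minus tumours was 0.13.

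Within each origin, a fit added after seeing the data gave tumours minus GFP NSCs differences for Sox9 of 0.53 in P0F (limma adjusted p = 0.775, with 1.9% of genes called), -2.75 in P0C (SE 0.55, adjusted 0.00954, 17.4% called) and -0.91 in E16C (adjusted 0.594, 0.662% called). All 3 P0C tumours, at 8.41, 8.58 and 9.12, lay under both P0C GFP NSC arrays at 11.57 and 11.33. The difference between the P0F and P0C changes was 3.27 (SE 0.88, unadjusted p = 0.00398, limma adjusted p = 0.0654, with 4.44% called), which missed the threshold. Whether the sorted and unsorted P0C GFP NSCs were separate cultures is not stated, and P0F and E16C GFP NSCs had 1 array each, which the fit assumes to vary like the other groups. For Sox2 the within-origin differences were 0.42, 0.53 and -0.32 (adjusted 0.835, 0.555 and 0.896).

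Listed genes were read against the 11.1% of all genes called in tumours minus GFP NSCs. Of the 16 SOX genes besides Sox2 and Sox9, 1 was called, Sox10, 2.23 higher in tumours than in GFP NSCs (limma adjusted p = 0.0335). Among Sox2 partners the chromatin remodeller gene Chd7 was higher (1.06, 0.0127) and Pou3f1 lower (-0.91, 0.0445), and none of the Sox9 regulators or cartilage targets was called. These counts, 1 of 16, 2 of 13 and 0 of 10 for each of the Sox9 lists, are small and give no order against that share. Gfap, the astrocyte filament gene, was 3.07 higher and Tnc, a matrix gene of radial glia, 1.98 lower in tumours (a difference of -1.98). In tumour cells against tumours, Mmd2 differed by -3.46 (limma adjusted p = 0.0383), Gfap by -4.24 and Tnc by 2.30. Microglia genes were higher for 8 of 9 and endothelial genes for 4 of 6 in tumours against GFP NSCs. In tumour cells against tumours 8 of 9 microglia genes were lower, where 1.88% of all genes were lower. Microglia scores were 6.47 to 6.51 in tumour cells, 7.94 to 9.23 in tumours and 6.19 to 7.25 in GFP NSCs. Among these cultures the P0F GFP NSCs had a photoreceptor score of 8.35, against 6.07 to 6.59 in the tumours and other cultures of the transplant series. The part of these cells in the Sox9 difference was not tested.

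The GTML tumour cells stood apart from the stem cell cultures. Sox2 was 6.40 in them, under all 32 GTML tumours, and Sox9 was 8.21, above 23 of them. Their astrocyte and Bergmann glia score was 6.65 and their photoreceptor score 9.08. With 1 array and an unclear labelling protocol, no test was made.

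**Figure D5:**
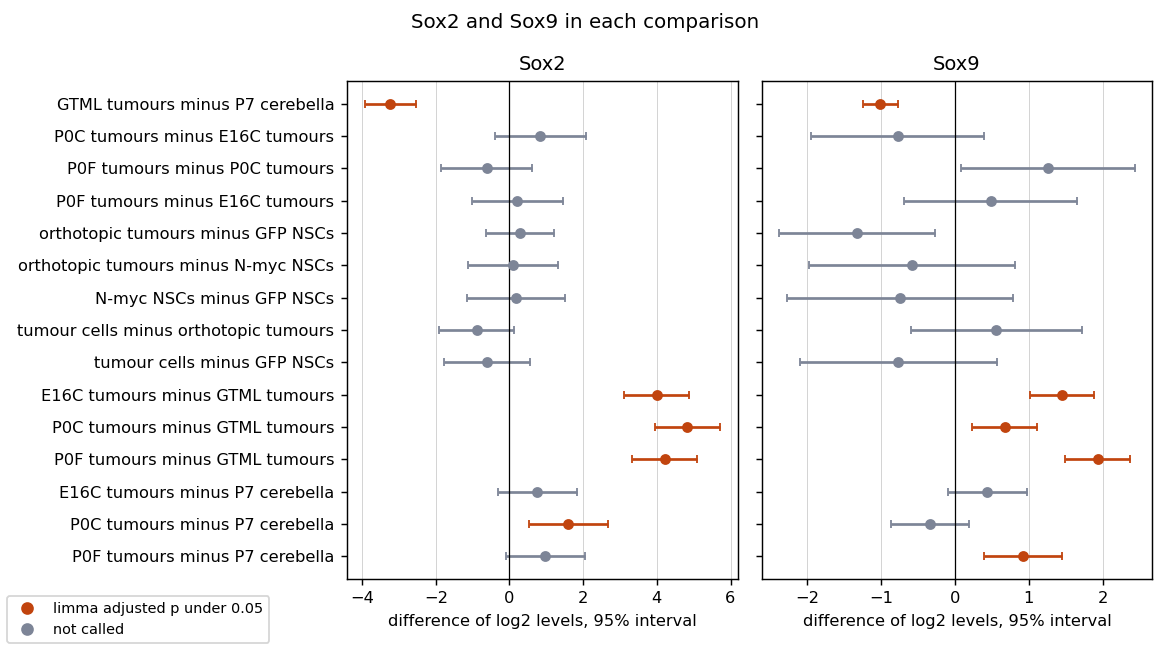
Differences in log2 levels for Sox2 (left) and Sox9 (right) in the 15 comparisons, each the first named group minus the second, with 95% intervals of the limma fits, coloured by whether the adjusted p passed 0.05. Both genes passed as lower in GTML tumours set against P7 cerebella and as higher in all 3 orthotopic origins than in GTML tumours, and neither passed in any comparison within the transplant series.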

How the data were processed

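Total RNA of 56 samples was hybridised to Affymetrix arrays, 1 per sample. The deposited table holds log2 values that the authors made by RMA with mm9 annotation, per the submitters' processing notes. The notes do not describe the rule behind its blanks (31111 values, 3.12%). Values ran from 2.37 to 14.88. Of the 17831 probes, 15620 had 1 gene symbol in the supplied annotation, 1370 had several and 841 had none. Where a gene had several probes (375 genes) the one with the highest mean was used. The highest correlation between arrays was 0.997 and 0 pairs were identical.

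From these values differences were fitted with limma 3.58.1 (R 4.3.3), moderated and adjusted by Benjamini-Hochberg over all genes tested, with a threshold of 0.05. A gene was kept if its level passed 6.30, the overall percentile 25, in a number of arrays no smaller than the smallest group of the fit. Blanks stayed missing, and a gene whose blanks left a contrast without an estimate was not tested. GTML tumours and P7 cerebella were fitted together, the 3 origins together, the transplant series with origin as a term, and all tissue together. The unequal change of Sox2 and Sox9 was tested by an exact permutation over allocations of arrays. Relations over GTML tumours used 100000 permutations (Python 3.11.15, numpy 2.4.6, pandas 2.3.3, scipy 1.17.1). The steps were tested on simulated data. A list score is the mean log2 level of its measured genes. Some genes, such as Nes and Pax6, stand in more than 1 list, so list counts and scores partly repeat the same genes.

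Sox2, Sox9 and the 17 gene lists (158 genes, 148 measured) were chosen with earlier results of these data known. Named genes were SOX genes called, by size of difference and at most 8, at most 3 called genes per list in GTML tumours against P7 cerebella and 2 elsewhere, the 10 genes most like each member and the 5 most opposed. Others are said to be chosen after their values were seen. Alternatives were quantile normalisation, centring on array medians, array weights, filled blanks, no filter or a stricter one, leaving out arrays, and the replicate number as a block. The fit within origins was chosen after seeing the data. Replicate numbers did not pair samples, with correlations of deviations between -0.22 and 0.20.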

Additional observations from a re-analysis of the deposited data

How the results depend on the processing

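The lower Sox2 and Sox9 in GTML tumours and the higher Sox2 in every orthotopic origin kept direction and call under all alternatives run, and so did the higher Sox9 in P0F and E16C tumours than in GTML tumours. For Sox9 in P0C against GTML tumours, leaving out 1 array gave 0.46 to 0.82. Against P7 cerebella, leave-one-out values were 0.39 to 1.41 for Sox2 and 0.13 to 1.01 for Sox9 in E16C tumours, 1.19 to 1.87 for Sox2 in P0C tumours and 0.65 to 1.35 for Sox9 in P0F tumours. The P0F Sox2 difference from P7 cerebella passed with array weights (1.05) and without 4 GTML tumours (0.98). For P0F minus E16C tumours, leave-one-out values were -0.43 to 0.58 for Sox2 and -0.082 to 0.91 for Sox9. For N-myc minus GFP NSCs Sox2 gave -0.20 to 0.61, for tumours minus N-myc NSCs -0.31 to 0.50, and for tumour cells minus GFP NSCs -1.07 to 0.17. For tumour cells minus tumours Sox2 gave -1.32 to -0.086 and Sox9 0.13 to 0.84, and Sox9 in tumours minus N-myc NSCs gave -1.12 to -0.039. For P0C minus E16C tumours Sox2 gave 0.19 to 1.20 and Sox9 -1.34 to -0.47. Sox9 in tumours minus GFP NSCs gave -1.95 to -1.002. It was -1.997 with array weights, -2.04 with cerebellar origins only, and -2.75 within P0C and 0.53 within P0F, where Sox2 within E16C was -0.32. Sox9 in tumour cells minus GFP NSCs was -1.88 with array weights and 0.27 without both P0C GFP NSC arrays, which also gave N-myc minus GFP NSCs of -0.11 for Sox2 and 0.39 for Sox9.

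Counts of genes called moved more. Leaving out 1 array gave 27 to 230 for P0C minus E16C tumours, 0 to 251 for P0F minus P0C, 0 to 82 for P0F minus E16C, 562 to 1569 for tumours minus GFP NSCs, 1 to 208 for tumours minus N-myc NSCs, 0 to 10 for N-myc minus GFP NSCs, 118 to 490 for tumour cells minus tumours and 2 to 209 for tumour cells minus GFP NSCs. Array weights gave 613 for P0F minus P0C, 58 for P0F minus E16C, 3936 for tumours minus GFP NSCs, 740 for N-myc minus GFP NSCs, 1578 for tumour cells minus tumours and 3272 for tumour cells minus GFP NSCs. Tumour cells minus tumours gave 294 under quantiles. Tumour cells minus GFP NSCs gave 6 under quantiles and 4 under centring, and N-myc minus GFP NSCs gave 4 with blanks filled. With the P0C GFP NSC arrays averaged the counts were 598 for tumours minus GFP NSCs, 92 for tumours minus N-myc NSCs, 0 for N-myc minus GFP NSCs and 2 for tumour cells minus GFP NSCs. Without both they were 312 for tumours minus GFP NSCs and 1 for tumour cells minus GFP NSCs. With cerebellar origins only they were 931 for tumours minus GFP NSCs, 35 for tumours minus N-myc NSCs, 2 for N-myc minus GFP NSCs, 51 for tumour cells minus tumours and 8 for tumour cells minus GFP NSCs. In GTML tumours against P7 cerebella 57.0% of calls were higher, and 69.5% of 7787 under centring.

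The replicate numbers did not pair the samples. With the replicate block the origin counts were 36 for P0C minus E16C, 25 for P0F minus P0C and 0 for P0F minus E16C, and in the 5 GTML tumours and 5 cerebella that share numbers the differences were -3.25 for Sox2 and -0.97 for Sox9, with adjusted p of 5.92e-05 and 0.000135. In that subset, with or without the block, Aspn was -0.40 and Sox1 0.12. Sox1 was 0.11 under quantiles, 0.13 under centring and -0.041 to 0.033 leaving out 1 array, where Sox4 was -0.0051 to 0.066. Across GTML tumours r of Sox2 with Sox9 was 0.41 without the 4 tumours, 0.31 under quantiles and 0.35 under centring. Weak relations that turned sign without the 4 tumours were Sox2 with its partners (r 0.10, rho 0.15), cartilage targets (r 0.051) and photoreceptor genes (rho 0.011), and Sox9 with granule neuron precursors (r -0.11, rho -0.10), cell cycle (rho 0.019) and endothelial cells (r -0.035, rho -0.061). Under quantiles they were Sox2 with cartilage targets (rho -0.091), microglia (r -0.018) and endothelial cells (r -0.073), and Sox9 with Sox2 partners (rho -0.0048) and granule neuron precursors (rho -0.056). Under centring they were Sox2 with cartilage targets (rho -0.051), microglia (r -0.040, rho -0.0070) and endothelial cells (r -0.035). List scores that passed with Sox9 were 3 without the 4 tumours. Cartilage targets in GTML tumours against P7 cerebella ranged over 0 to 5 higher and 1 to 4 lower across alternatives. The cause of these changes was not tested. The number of arrays limits the precision, and cultures had 1 array each.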
